A study of Mus musculus with 20 samples.

Results

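The circadian clock genes Per1, Per2, Per3, Cry1, Cry2, Nr1d1, Nr1d2, Dbp, Tef and Clock were followed across the knee joints of mice with surgically induced osteoarthritis. They were taken by name from the deposited expression table, in which all 10 were found among 14793 genes. None of them was near the lower limit of detection, and the lowest single value was 380 normalized counts for Per2 in 1 joint. A normalized count is the number of reads assigned to a gene, divided by a factor for the depth of its library.

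Joints came from male C57BL/6Nci mice that were 12 weeks old at surgery. All had destabilization of the medial meniscus, in which the ligament that anchors the meniscus is cut so that the cartilage wears. Control joints (CTRL) received a needle without cells, and the other joints received mesenchymal stromal cells (MSC) grown from pooled abdominal and inguinal fat. The cells were either not activated (MSC), or exposed for 2 h to an agonist at 10 µg/mL, which was pIC, a double-stranded RNA mimic that TLR3 senses (TLR3-MSC), or 2′3′cGAMP, the cyclic dinucleotide that STING senses (STING-MSC). They were given in weeks 3 and 5 after surgery. Each group had 5 joints from 5 mice, and each library was made from the cartilage, synovium, joint capsule and subchondral bone together. The cells came from a single donor pool, so that the groups have no independent batches of cells. The methods place tissue collection 8 weeks after surgery and the results place it 24 h after injection, and the time of day at which tissue was taken is not given in the sources used here. Mice were housed in groups of 5, and which cage held which mouse is not given. A difference between treatment groups and a difference in the hour of collection, or in the cage, therefore cannot be told apart in these data.

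Each library held from 27955496 to 52529973 reads on these genes, so that counting error was small for every clock gene. MSC replicate 5 stood apart in its rare genes, with 296 genes at 0 of which 239 were at 0 in that library alone, and results that turn on it are given with and without it. In a whole joint, fewer cells of a type and less RNA per cell cannot be told apart. The markers of cartilage, bone, synovial fibroblasts, macrophages and adipocytes were all present in every group. Markers of skeletal muscle, which is not among the tissues named, were present too, at a sum of 923124 to 3771910 normalized counts per joint.

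The clock of mammalian cells is a loop of transcription. CLOCK, or its relative NPAS2, pairs with BMAL1 (named Arntl in this table) and switches on the Per and Cry genes, Nr1d1, Nr1d2, Dbp, Tef and Ciart, often through a DNA motif called the E-box. PER and CRY proteins then shut CLOCK and BMAL1 down, and the nuclear receptors REV-ERBα and REV-ERBβ, made from Nr1d1 and Nr1d2, repress Arntl, Npas2, Clock, Cry1 and Nfil3. DBP, TEF and HLF bind the D-box, where NFIL3 opposes them. In peripheral tissues of mice the Nr1d genes, Dbp and Tef peak in the light phase, Per1 and Per2 around dusk, Cry1 in the night and Arntl, Npas2 and Clock around dawn. Per1 and Per2 also respond within the hour to glucocorticoids and to signals that act through the cAMP response element (CRE).

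The promoter windows of these genes were searched for the motifs of the loop. RefSeq windows of 300 bases, from 250 before to 50 after the start (build GRCm38.p6, an older build than the GRCm39 of the expression table), matched 9 of the 10 genes (all but Per2), in 13 entries. An E-box, CACGTG, lay in 7.15% of 32851 such windows in the genome, a D-box, TTATGTAA on either strand, in 0.938%, and the full CRE, TGACGTCA, in 1.79%. Of the 9 genes, Per1, Cry1 and Tef held an E-box and Per3 held 2 D-boxes, and none held the full CRE. Ciart, an E-box target outside the 10 genes, held 3 E-boxes. The 250 bases before the start are printed 5′ to 3′ on the strand of the gene, with the E-boxes or D-boxes in capitals. They are shown because Per1, Tef and Ciart share the E-box and lay on different sides of the control level in MSC joints. The matches do not overlap each other.
Per1 (chr11:69098699-69098948, plus strand, E-box 166 bases before the start): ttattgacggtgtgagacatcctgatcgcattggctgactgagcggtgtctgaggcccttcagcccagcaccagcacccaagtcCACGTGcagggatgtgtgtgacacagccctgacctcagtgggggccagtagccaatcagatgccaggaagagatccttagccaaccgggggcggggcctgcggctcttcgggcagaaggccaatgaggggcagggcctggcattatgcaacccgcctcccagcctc
Cry1 (chr10:85185055-85185304, minus strand, E-box 60 bases before the start): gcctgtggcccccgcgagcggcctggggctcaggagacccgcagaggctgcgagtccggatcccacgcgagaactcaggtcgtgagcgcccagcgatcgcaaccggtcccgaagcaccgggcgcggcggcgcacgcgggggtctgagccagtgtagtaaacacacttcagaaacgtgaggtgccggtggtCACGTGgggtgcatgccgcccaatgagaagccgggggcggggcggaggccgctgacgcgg
Tef (chr15:81802423-81802672, plus strand, E-box 127 bases before the start): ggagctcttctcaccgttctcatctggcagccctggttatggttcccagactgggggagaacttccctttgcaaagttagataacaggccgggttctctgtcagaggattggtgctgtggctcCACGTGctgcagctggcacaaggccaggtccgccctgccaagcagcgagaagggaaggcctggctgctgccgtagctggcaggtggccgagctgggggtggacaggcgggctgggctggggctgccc
Per3 (chr4:151044666-151044915, minus strand, D-boxes 205 and 158 bases before the start): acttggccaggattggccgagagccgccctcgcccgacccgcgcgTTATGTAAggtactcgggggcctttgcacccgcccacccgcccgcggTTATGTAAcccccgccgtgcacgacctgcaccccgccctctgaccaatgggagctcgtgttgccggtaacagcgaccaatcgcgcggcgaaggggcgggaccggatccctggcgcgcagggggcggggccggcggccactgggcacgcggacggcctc
Ciart (chr3:95882229-95882478, minus strand, E-boxes 116, 58 and 44 bases before the start): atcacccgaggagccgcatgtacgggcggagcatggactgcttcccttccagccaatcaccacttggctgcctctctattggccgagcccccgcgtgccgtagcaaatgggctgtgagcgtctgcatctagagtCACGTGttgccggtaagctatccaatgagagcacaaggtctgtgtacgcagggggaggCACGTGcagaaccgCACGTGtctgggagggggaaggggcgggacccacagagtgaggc
A match describes the letters and not a bound site, and no match says only that these letters are not in the window.

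To compare levels between genes, normalized counts were divided by the length of annotated exon in kilobases and averaged over the 20 joints. On that scale Nr1d1 stood highest, at 848 ± 227 normalized counts per kilobase (SD over 20 joints), followed by Tef at 610 ± 166, Dbp at 392.5 ± 151, Nr1d2 at 299 ± 65.9 and Per1 at 215 ± 82.4. Cry2 at 155 ± 33.0 and Cry1 at 146 ± 18.9 were not separated, since Cry2 was the higher gene in 11 of 20 joints. The lowest levels were those of Per2, at 86.5 ± 16.9, Clock, at 84.7 ± 21.6, and Per3, at 69.7 ± 11.5, and neighbours among these were in that order in 12 and 13 of 20 joints. All other neighbours kept their order in at least 16 joints. The length used merges all annotated exons of a gene, from every transcript, and was 17.3 kb for Clock and 3.24 kb for Nr1d1. The order therefore depends on the annotation. Before division by length, Clock averaged 1462 normalized counts and Per2 568.

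Between the 4 groups, Per1, Per2, Cry1 and Dbp differed most. In limma, a linear model fitted to log2(normalized count + 1) of all genes, these 4 of 10 clock genes reached an unadjusted p of 0.05 or less in the test for any difference among groups, where 6.42% of all genes did. None of the 10 passed an adjusted p (false discovery rate, FDR) of 0.05, as did 0% of all genes. DESeq2, the count test that the study names, run on whole reads recovered from the deposited values, called Dbp and Per1 at that FDR (adjusted p = 0.0417 and 0.00466), where it called 0.75% of all genes, and edgeR called none of the 10. The share of a gene's variance that lay between groups was 59.3% for Per1, 53.6% for Per2, 52.3% for Dbp and 48.8% for Cry1. For the other members it was 36.1% for Per3, 29.9% for Nr1d1, 26.2% for Tef, 16.7% for Nr1d2, 11.4% for Clock and 4.01% for Cry2. The median over the 10 genes was 33.0%, beside 15.0% over all genes.

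**Figure D1:**
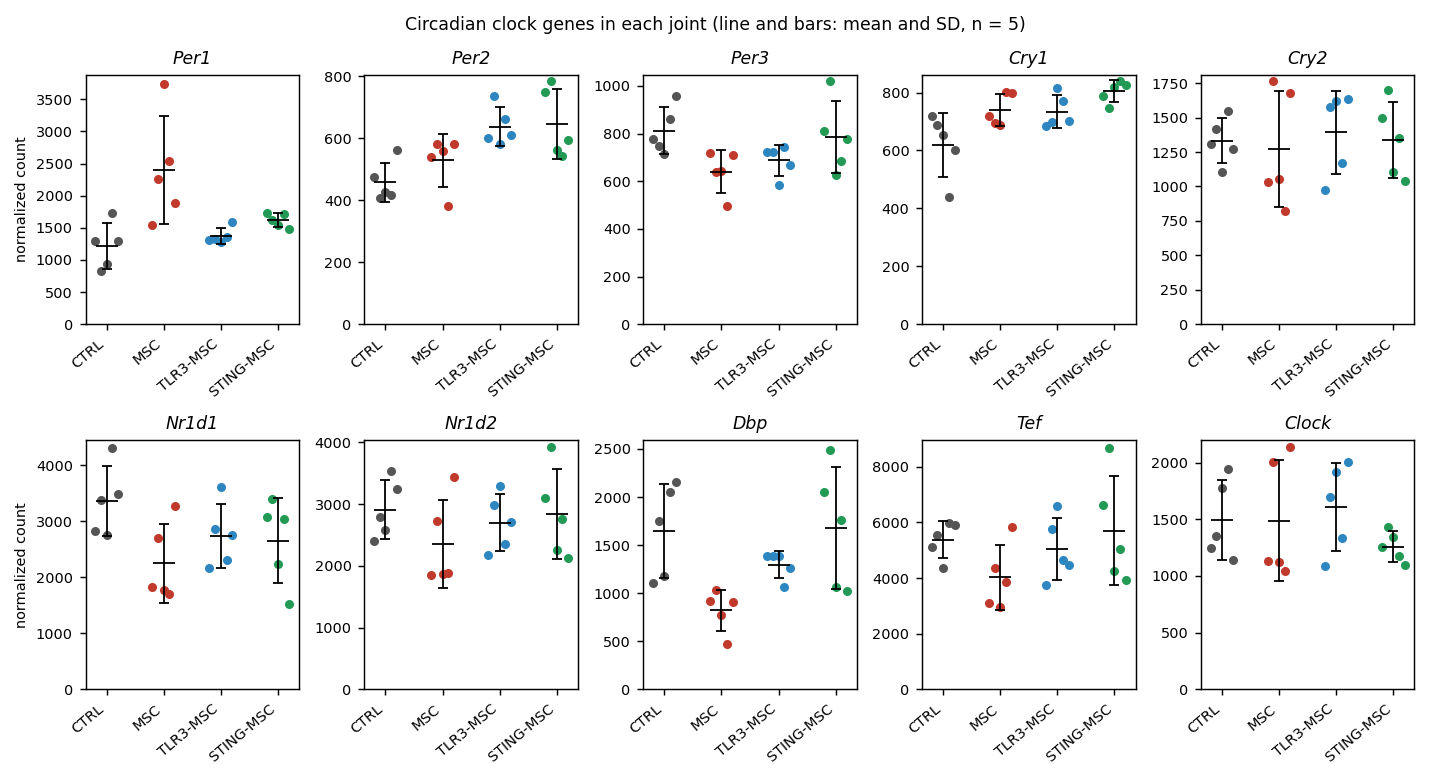
Normalized counts (vertical axes, from 0) of the 10 clock genes in each of the 20 joints, by group, with the mean and SD of 5 joints. Per1 is high in MSC joints, where Dbp is low, with the highest MSC joint for Dbp at 1032 and the lowest control joint at 1105.

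Per1 (chr11:68986043-69000787 in GRCm39, as deposited), a repressor of the loop that is also induced by acute signals, was highest in joints that received non-activated MSC. Its normalized counts were 1288, 823, 934, 1733 and 1293 in the control joints. In the MSC joints they were 1540, 2255, 3739, 2545 and 1892. In the TLR3-MSC joints they were 1302, 1333, 1276, 1364 and 1594, and in the STING-MSC joints 1727, 1627, 1537, 1708 and 1477. Of the 5 MSC joints 4 lay above every control joint, and the 5 joints of each activated group lay in a narrow band inside the control range. Per1 was 1.95-fold higher in MSC than in CTRL joints (95% interval 1.46 to 2.60; log2 difference 0.96 ± 0.20 SE, limma adjusted p = 0.0981, exact permutation p = 0.0159). DESeq2 placed the same difference past its threshold (log2 difference 0.98, DESeq2 adjusted p = 0.0018). Per1 was also higher in MSC joints than in both activated groups. The log2 difference was −0.74 ± 0.20 for TLR3-MSC minus MSC (limma adjusted p = 0.978) and −0.50 ± 0.20 for STING-MSC minus MSC (limma adjusted p = 0.920). STING-MSC joints were 1.37-fold above CTRL joints for Per1 (limma unadjusted p = 0.0312, adjusted p = 0.379). The limma unadjusted p was 0.107 when the lowest control joint was left out, and that of STING-MSC minus MSC was 0.0773 when the highest MSC joint, at 3739, was left out.

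Per2 (chr1:91343704-91387047), a main repressor of the loop together with Per1, was ordered differently. It measured 475, 407, 427, 417 and 562 normalized counts in CTRL joints and 538, 583, 560, 380 and 582 in MSC joints. The TLR3-MSC joints measured 599, 737, 582, 662 and 609, and the STING-MSC joints 749, 785, 561, 543 and 594. Every TLR3-MSC joint lay above every control joint, and 3 of 5 STING-MSC joints did, while MSC joints overlapped the controls. Groups without overlap, in either direction, occurred for 0.825% of all genes between TLR3-MSC and CTRL. Per2 was 1.40-fold higher in TLR3-MSC than in CTRL (95% interval 1.15 to 1.70; log2 difference 0.48 ± 0.13, limma adjusted p = 0.9997, exact permutation p = 0.00794, the smallest that 5 against 5 joints allow). In STING-MSC it was also 1.40-fold higher (1.16 to 1.71; log2 difference 0.49 ± 0.13, limma adjusted p = 0.289, exact permutation p = 0.0238). Both activated groups stood above MSC joints by 0.28 and 0.29 on the log2 scale (limma unadjusted p = 0.0496 and 0.0441). Without MSC replicate 4, the lowest joint of its group, these p-values were 0.184 and 0.166.

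Per3 (chr4:151088109-151129123), a PER paralog with the D-boxes printed above, had its lowest levels in the MSC group. Values were 778, 749, 715, 860 and 957 normalized counts in CTRL, 718, 639, 642, 495 and 708 in MSC, 723, 723, 584, 745 and 667 in TLR3-MSC and 810, 1021, 627, 683 and 778 in STING-MSC joints. Of the MSC joints 4 lay below every control joint, and the other, at 718, lay just above the lowest control, at 715. The log2 difference of MSC from CTRL was −0.35 ± 0.13 (limma unadjusted p = 0.0141, adjusted p = 0.409), and STING-MSC was above MSC by 0.28 ± 0.13 (limma unadjusted p = 0.0395, adjusted p = 0.938). The first had a limma unadjusted p of 0.0529 when the lowest MSC joint was left out, and the second one of 0.144 when the highest STING-MSC joint was.

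Cry1 (chr10:84967564-85020929), the stronger CRY repressor and a gene of the night, was lowest in CTRL joints. It measured 720, 689, 652, 439 and 600 normalized counts in CTRL, 719, 695, 689, 800 and 799 in MSC, 685, 697, 815, 772 and 701 in TLR3-MSC and 787, 746, 820, 841 and 827 in STING-MSC joints. Each STING-MSC joint lay above each control joint, in a comparison where 2.17% of all genes showed no overlap in either direction. The difference from CTRL was 1.31-fold for STING-MSC (95% interval 1.13 to 1.53; log2 difference 0.39 ± 0.11, limma adjusted p = 0.289, exact permutation p = 0.00794). It was 1.21-fold for MSC and 1.20-fold for TLR3-MSC (limma unadjusted p = 0.0194 and 0.0248). Both of the smaller differences leaned on CTRL replicate 4, the lowest joint, without which p was 0.0692 and 0.0928. Cry2 (chr2:92233991-92264389), its paralog, had group means from 1270 ± 423 normalized counts in MSC to 1395 ± 301 in TLR3-MSC joints (SD), and its range in the MSC group alone, from 824 to 1765, held the values of all 20 joints.

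Nr1d1 (chr11:98658758-98666160) and Nr1d2 (chr14:4230569-4265643), the REV-ERB repressors, were lower in MSC joints. Nr1d1 measured 2834, 3382, 2763, 4314 and 3486 normalized counts in CTRL and 1822, 2696, 1768, 1698 and 3270 in MSC joints. It measured 2161, 2855, 3609, 2315 and 2754 in TLR3-MSC and 3070, 3403, 2235, 3042 and 1530 in STING-MSC joints. Of the MSC joints 4 fell below the lowest control and the other, replicate 5, sat among the controls. The log2 difference was −0.61 ± 0.22 (limma unadjusted p = 0.0125, adjusted p = 0.395), and −0.76 without MSC replicate 5. For Nr1d2 the group means were 2914 ± 470 normalized counts in CTRL, 2360 ± 713 in MSC, 2703 ± 457 in TLR3-MSC and 2836 ± 726 in STING-MSC joints (SD), and no pairwise difference had an unadjusted p of 0.05 or less.

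Dbp (chr7:45354512-45359628), a D-box activator and one of the most strongly cycling outputs of the clock, was lowest in MSC joints. In CTRL joints it measured 1105, 1748, 1175, 2048 and 2160 normalized counts. In MSC joints it measured 915, 1032, 769, 474 and 914. In TLR3-MSC joints it measured 1392, 1392, 1385, 1061 and 1266, and in STING-MSC joints 2056, 2494, 1070, 1763 and 1020. All 5 MSC joints lay below all 5 control joints and below all 5 TLR3-MSC joints, and 4 of 5 STING-MSC joints lay above all MSC joints. Groups without overlap, in either direction, occurred for 1.11% of all genes between MSC and CTRL and for 0.581% between TLR3-MSC and MSC. The log2 difference of MSC from CTRL was −0.998 ± 0.257, a ratio of 0.501 (limma adjusted p = 0.201, exact permutation p = 0.00794), and DESeq2 called this difference (adjusted p = 0.0245). STING-MSC joints were 1.99-fold above MSC joints (95% interval 1.37 to 2.89; limma adjusted p = 0.591, exact permutation p = 0.0159, DESeq2 adjusted p = 0.0380), and TLR3-MSC joints 1.63-fold (1.12 to 2.36; limma adjusted p = 0.978). The last difference had an unadjusted p of 0.0133, and of 0.0503 without MSC replicate 4, the lowest joint.

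Tef (chr15:81686622-81711065), a D-box activator related to Dbp, had the same order of MSC and CTRL means with a wider overlap. Its values were 5122, 5548, 4358, 5991 and 5903 normalized counts in CTRL and 3104, 4380, 2960, 3870 and 5832 in MSC joints. They were 3756, 5774, 6576, 4656 and 4475 in TLR3-MSC and 6635, 8678, 4257, 5038 and 3922 in STING-MSC joints. In MSC joints 3 of 5 values lay below the lowest control, and the log2 difference was −0.45 ± 0.21 (limma unadjusted p = 0.0472, adjusted p = 0.577). STING-MSC lay 0.48 ± 0.21 above MSC (limma unadjusted p = 0.0360, adjusted p = 0.938). Leaving out MSC replicate 3 gave a limma unadjusted p of 0.128 for the first difference, and leaving out the highest STING-MSC joint gave 0.133 for the second. Clock (chr5:76357715-76452640), which encodes the activator itself and cycles little in many tissues, had group means of 1492 ± 350, 1488 ± 536, 1607 ± 388 and 1260 ± 133 normalized counts in CTRL, MSC, TLR3-MSC and STING-MSC joints (SD), with no pairwise difference at an unadjusted p of 0.05.

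**Figure D2:**
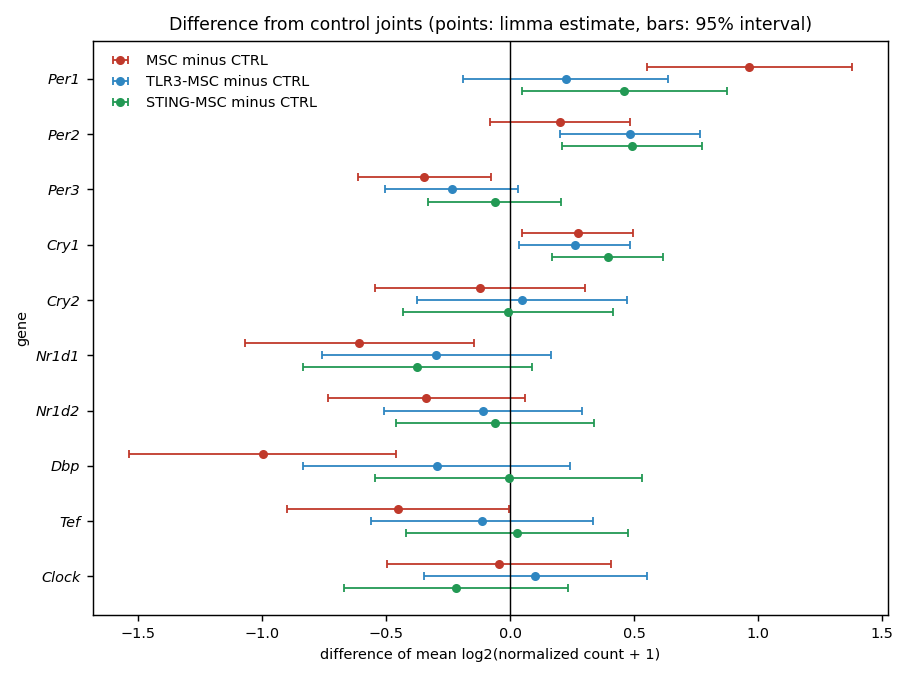
Difference of the mean log2(normalized count + 1) of each cell-treated group from CTRL joints (horizontal axis) for the 10 clock genes, with 95% intervals from limma; the 3 comparisons share the same 5 control joints. MSC lies lowest for Dbp, at −0.998, and highest for Per1, at 0.96, while the intervals for Cry2, Nr1d2 and Clock include 0 in every group.

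Counted by comparison, 6 of 10 clock genes had an unadjusted p of 0.05 or less between MSC and CTRL, beside 8.55% of all genes. Per1 and Cry1 were the 2 on the higher side, where 5.64% of all genes lay, and Per3, Nr1d1, Dbp and Tef the 4 on the lower side, where 2.91% lay. The median log2 difference of the 10 genes was −0.23, against −0.04 for all genes. None passed an FDR of 0.05 in limma, as did 0.00676% of all genes, and in DESeq2 2 of 10 did, beside 0.71%. In TLR3-MSC against CTRL, 2 of 10 (Per2 and Cry1) had an unadjusted p of 0.05 or less, beside 3.58% of all genes, and both were higher (2.68% of all genes). In STING-MSC against CTRL, 3 of 10 (Per1, Per2 and Cry1) did, beside 12.2%, and all 3 were higher (6.54%). Median log2 differences of the 10 genes were −0.03 and −0.01 there. For both comparisons limma called 0% of all genes, and none of the 10, at an FDR of 0.05, and DESeq2 and edgeR called none of the 10.

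The comparisons of activated with non-activated cells share the MSC joints. Between TLR3-MSC and MSC, 3 of 10 clock genes had an unadjusted p of 0.05 or less, beside 3.88% of all genes. Per2 and Dbp were higher (1.89% of all genes) and Per1 lower (1.99%). Between STING-MSC and MSC 5 of 10 did, beside 4.94%, with Per2, Per3, Dbp and Tef higher (2.77%) and Per1 lower (2.17%). At an FDR of 0.05 limma called none of the 10 and 0% of all genes in these comparisons, while DESeq2 called Dbp alone of the 10 between STING-MSC and MSC, beside 0.196% of all genes. Between the activated groups 0 of 10 genes had a limma unadjusted p of 0.05 or less, beside 2.57% of all genes. Their log2 differences (STING-MSC minus TLR3-MSC) ran from −0.32 to 0.29 over the 10 genes. For Dbp in that comparison, the 95% interval of the log2 difference was −0.25 to 0.83, and for Per1 −0.18 to 0.65. For Per1, whose spread was smaller in these groups than in CTRL and MSC joints, 3 of 5 STING-MSC joints lay above all TLR3-MSC joints (1.18-fold, exact permutation p = 0.0238). Without MSC replicate 5 the counts were 7 of 10 for MSC against CTRL, 6 for TLR3-MSC against MSC and 6 for STING-MSC against MSC, beside 13%, 6.13% and 6.66% of all genes. The count for MSC against CTRL was 4 of 10 without CTRL replicate 4.

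A list of 23 other clock genes held the partners and antagonists of these 10, and all 23 were measured. Of them Arntl, Npas2, Ciart, Hlf and Nfil3 had an unadjusted p of 0.05 or less for any difference among the groups, and no others did. These 5 of 23 stand beside 6.42% of all genes. In MSC against CTRL, 6 of 23 had such a p, 2 of them higher and 4 lower, beside 8.55% of all genes, and in TLR3-MSC against CTRL 0 of 23, beside 3.58%. In STING-MSC against CTRL 3 of 23 did, 1 higher and 2 lower, a share near the 12.2% of all genes. Against MSC, 5 of 23 did in TLR3-MSC (beside 3.88%) and 5 of 23 in STING-MSC joints (beside 4.94%). Between the activated groups 1 of 23 did, beside 2.57% of all genes, namely Npas2, which was lower in STING-MSC joints. Against CTRL, the median log2 difference of the list was −0.11 in MSC joints, −0.05 with TLR3-MSC and −0.01 with STING-MSC.

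Ciart (chr3:95785815-95789564), an E-box target whose protein represses CLOCK and BMAL1, separated MSC joints from the controls like Dbp. It measured 82.6, 87.0, 69.1, 105 and 152 normalized counts in CTRL, 41.6, 41.3, 53.7, 44.5 and 41.7 in MSC, 68.3, 67.1, 85.8, 76.6 and 66.7 in TLR3-MSC and 129, 113, 50.1, 75.0 and 95 in STING-MSC joints. No MSC joint reached the lowest CTRL or TLR3-MSC joint. Such separation, in either direction, was seen for 1.11% of all genes between MSC and CTRL and for 0.581% between TLR3-MSC and MSC. The log2 difference of Ciart for MSC minus CTRL was −1.09 ± 0.23 (limma adjusted p = 0.104, exact permutation p = 0.00794, DESeq2 adjusted p = 0.00151). STING-MSC was 1.96-fold above MSC (limma adjusted p = 0.539, DESeq2 adjusted p = 0.0197).

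Nfil3 and Arntl lay on the higher side in MSC joints, while of the other genes that REV-ERB proteins repress Npas2 and Clock had log2 differences of −0.08 and −0.05 for MSC minus CTRL. Nfil3 (chr13:53121245-53135110), the antagonist of DBP at the D-box, measured 655, 552, 648, 613 and 373 normalized counts in CTRL, 649, 832, 856, 1093 and 931 in MSC, 486, 691, 697, 628 and 727 in TLR3-MSC and 809, 516, 650, 663 and 602 in STING-MSC joints. Of the MSC joints 4 lay above all controls, and the log2 difference was 0.63 ± 0.17 (limma adjusted p = 0.232, DESeq2 adjusted p = 0.0455). Arntl (chr7:112806672-112913334), the partner of CLOCK, measured 803, 710, 661, 713 and 527 in CTRL, 782, 907, 815, 910 and 819 in MSC, 564, 823, 894, 640 and 722 in TLR3-MSC and 530, 619, 760, 632 and 529 in STING-MSC joints. For Arntl 4 of the MSC joints lay above all controls, and the highest STING-MSC joint, at 760, lay under the lowest MSC joint. How many of all genes lacked overlap between STING-MSC and MSC joints was not counted. The log2 difference was 0.32 ± 0.13 for MSC minus CTRL (limma unadjusted p = 0.0256, and 0.091 without CTRL replicate 5) and −0.47 ± 0.13 for STING-MSC minus MSC (limma unadjusted p = 0.00199, adjusted p = 0.683).

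Hlf (chr11:90227362-90281722), the third D-box activator, had its lowest mean, 301 normalized counts, in MSC joints and its highest, 486, in STING-MSC joints (log2 difference 0.67 ± 0.18, limma adjusted p = 0.591). Npas2 (chr1:39232812-39402318), which can stand in for CLOCK, was uniformly low in STING-MSC joints, from 58.5 to 89.7 normalized counts, and ranged from 77.5 to 727 in the other groups. All 5 STING-MSC joints lay below all 5 controls, in a comparison where 2.17% of all genes showed no overlap in either direction. The log2 difference of Npas2 for STING-MSC minus CTRL was −1.53 ± 0.53 (limma adjusted p = 0.330). It was −0.54 with the neutrophil score as a covariate and −0.91 with the synovial fibroblast score.

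**Figure D3:**
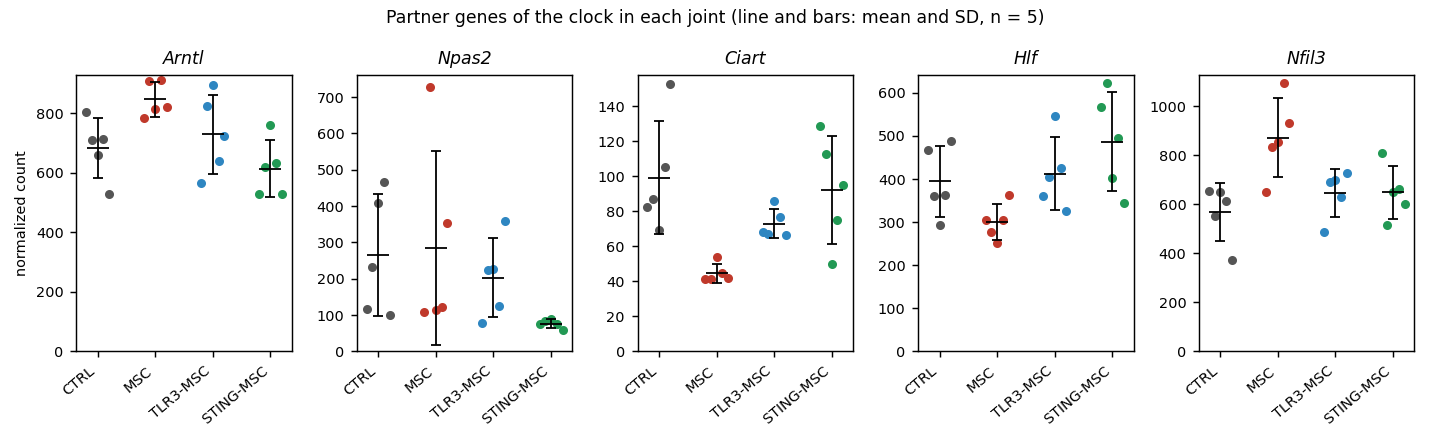
Normalized counts (vertical axes, from 0) of Arntl, Npas2, Ciart, Hlf and Nfil3 in each of the 20 joints, by group, with the mean and SD of 5 joints. The 5 MSC joints lie low for Ciart, from 41.3 to 53.7, and high for Arntl, from 782 to 910.

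Opposed genes were also compared inside each joint, where the depth of the library cancels out. Dbp over Arntl was 1.38, 2.46, 1.78, 2.87 and 4.10 in CTRL joints and 1.17, 1.14, 0.944, 0.521 and 1.12 in MSC joints. It was 2.47, 1.69, 1.55, 1.66 and 1.75 in TLR3-MSC joints and 3.88, 4.03, 1.41, 2.79 and 1.93 in STING-MSC joints. All 5 MSC joints lay below the other 15 joints, of which the lowest was a control joint at 1.38. Ciart over Nfil3 ran from 0.0407 to 0.0640 in MSC joints and from 0.0770 to 0.409 in the others. Per1 over Dbp ran from 1.68 to 5.37 in MSC joints and from 0.471 to 1.45 in the others. Per2 over Dbp ran from 0.564 to 0.802 in MSC joints and reached 0.624 in TLR3-MSC and 0.582 in STING-MSC joints, so that those groups overlapped. These 4 ratios were chosen after the values of their genes were seen and carry no test. A broader contrast, the mean centred log2 level of Dbp, Tef, Nr1d1, Nr1d2 and Per3, which peak in the day or at dusk, minus that of Arntl, Npas2, Clock, Cry1 and Nfil3, which peak at night or dawn, averaged 0.22 ± 0.46 in CTRL, −0.55 ± 0.22 in MSC, −0.06 ± 0.24 in TLR3-MSC and 0.39 ± 0.40 in STING-MSC joints (SD). On this measure MSC joints, from −0.77 to −0.29, overlapped 1 control joint, at −0.34, and 1 TLR3-MSC joint, at −0.39. Taken alone, the day genes averaged 0.21 in CTRL, −0.34 in MSC, 0.003 in TLR3-MSC and 0.12 in STING-MSC joints. The night and dawn genes averaged −0.006, 0.21, 0.06 and −0.27 in the same order. Per1, which is not in the contrast, was high in the MSC joints, where the day genes were low.

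**Figure D4:**
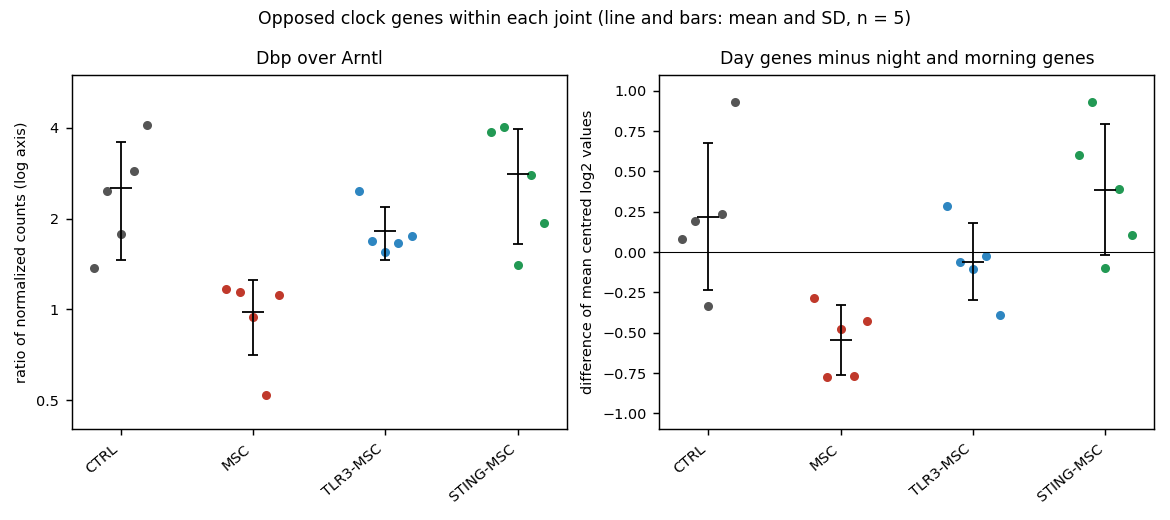
Left, the ratio of Dbp to Arntl normalized counts in each joint (log axis). Right, the mean centred log2 level of 5 genes of the day minus that of 5 genes of the night and morning. Each point is a joint, with the mean and SD of 5. The MSC joints reach 1.17 on the left, below every other joint, and lie under 0 on the right.

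Within groups, many of the clock genes varied together from joint to joint. After group means were subtracted, 17 of 45 pairs of the 10 genes were correlated over the 20 joints at a Benjamini-Hochberg adjusted permutation p of 0.05 or less, all 17 positively, and 18 pairs were by Spearman's rho. The share of all gene pairs that were correlated so closely was not counted. Ranked by r among 14792 genes, Clock held place 3042 for Tef (r = 0.541) and Dbp place 2155 for Cry2 (r = 0.671). Nr1d2 held place 5 for Nr1d1. The closest pairs were Nr1d1 with Nr1d2 (r = 0.935, rho = 0.937, adjusted permutation p = 7.5e-05 and 9e-05), Nr1d2 with Tef (r = 0.925, rho = 0.908) and Cry2 with Nr1d2 (r = 0.870, rho = 0.874). Without the 2 joints farthest from the median of the first gene, r was 0.940, 0.879 and 0.895. Per2 and Per3 were correlated with each other (r = 0.819, rho = 0.731, and 0.734 without the 2 farthest joints) and each was the gene most like the other among 14792 genes. Dbp was correlated with Nr1d1 (r = 0.748) and with Per3 (r = 0.673), the latter with r = 0.485 without the 2 farthest joints. Per1 was correlated with none of the other 9 at that threshold, and its strongest relation was a negative one with Cry1 (r = −0.51, rho = −0.35, adjusted permutation p = 0.0609 for r), which was −0.17 without the 2 farthest joints. Clock was correlated with Npas2 (r = 0.936, rho = 0.947, adjusted permutation p = 0.0005 over 50 pairs of the 10 genes with 5 partner genes, a family added later).

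**Figure D5:**
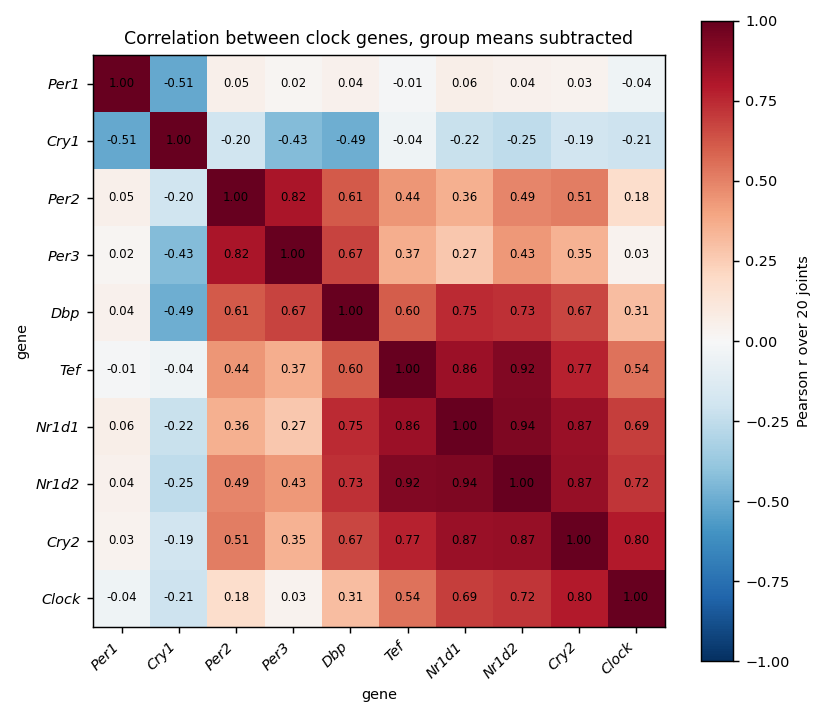
Pearson correlation (colour and numbers) between the 10 clock genes over 20 joints, after the mean of each group was subtracted from log2(normalized count + 1). Nr1d1, Nr1d2, Tef, Cry2 and Clock are correlated with each other at r of 0.54 or more. Dbp is correlated with Nr1d1, Nr1d2, Tef and Cry2 at r of 0.60 or more, but with Clock at 0.31. Per1 and Cry1 stand apart from these genes.

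Nr1d1, Nr1d2, Tef, Cry2, Clock, Dbp and Cry1 varied with the marker RNA of several cell types. The 10 genes were set against the mean log2 level of 9 marker lists, a family of 90 relations added after the first results were seen, of which 21 had an adjusted permutation p of 0.05 or less. The share of all genes related so closely to these lists was not counted. Clock varied inversely with 7 erythroid markers (r = −0.94), Nr1d2 inversely with 8 neutrophil markers (r = −0.91), Tef directly with 10 skeletal muscle markers (r = 0.884) and Cry2 directly with 6 synovial fibroblast markers (r = 0.818), each over 20 joints with adjusted permutation p = 0.00015 and rho of −0.93, −0.84, 0.898 and 0.827. Without the 2 farthest joints these r were −0.91, −0.90, 0.846 and 0.744. Dbp varied inversely with the neutrophil markers (r = −0.71, rho = −0.67, adjusted permutation p = 0.00291 for r). It varied directly with the synovial fibroblast markers (r = 0.669, rho = 0.532, adjusted permutation p = 0.00546 for r and 0.0768 for rho). Cry1 varied inversely with 6 bone markers (r = −0.53, rho = −0.60, adjusted permutation p = 0.0441 for r). Per1, Per2 and Per3 were related to none of the 9 lists at that threshold. The genes most like each clock gene in the whole table were mostly not clock genes, for example Prrc2b for Nr1d2 (r = 0.972), Gramd3 for Clock (r = 0.969), Crim1 for Nr1d1 (r = 0.955), Lama5 for Cry2 (r = 0.930), Map3k13 for Dbp (r = 0.890), Tarbp2 for Cry1 (r = 0.838) and Jmjd6 for Per1 (r = 0.735).

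Neutrophil markers, which are granule genes of neutrophils and their marrow precursors, were higher in MSC and in STING-MSC joints than in controls. Of 8 markers, 5 were higher at an unadjusted p of 0.05 or less in MSC against CTRL (median log2 difference 0.50), 6 in STING-MSC against CTRL (0.50) and 0 in TLR3-MSC against CTRL (0.25). Of all genes, 5.64%, 6.54% and 2.68% were higher at that p in these comparisons. All 8 were measured in every joint, and their summed normalized counts ran from 398925 to 716181 in CTRL, 569990 to 974793 in MSC, 536564 to 826995 in TLR3-MSC and 571904 to 890830 in STING-MSC joints. When their mean log2 level was added to the limma model of all 20 joints as a covariate, the MSC minus CTRL log2 difference was 1.03 for Per1 and −0.51 for Dbp (limma unadjusted p = 0.000346 and 0.0303). It was −0.13 for Nr1d1, −0.04 for Tef, −0.22 for Per3 and 0.14 for Cry1, with an unadjusted p of 0.138 or more in limma. For the partner genes it was −0.94 for Ciart, 0.60 for Nfil3 and 0.35 for Arntl, with an unadjusted p of 0.0397 or less. The differences of Nr1d1 and Tef thus kept little of their size beside this score, and those of Per1, Ciart, Nfil3 and Arntl kept most of it. With the same covariate 7 of 10 clock genes were above CTRL in STING-MSC joints at an unadjusted p of 0.05 or less, in place of 3, beside 4.5% of all genes with this covariate, in place of 6.54%. Skeletal muscle or synovial fibroblast markers as the covariate left the MSC minus CTRL difference at −0.94 and −0.77 for Dbp, −0.50 and −0.39 for Nr1d1 and 0.95 and 0.98 for Per1. The values of Tef, which varied most closely with the muscle markers (r = 0.884), are not given here.

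Per1 also belongs to the genes that glucocorticoids and acute stimuli induce, so that both kinds were counted. Of 11 measured glucocorticoid-induced genes, 1 (Tsc22d3) had an unadjusted p of 0.05 or less between MSC and CTRL. It was higher, beside 5.64% of all genes, and the list's median log2 difference was −0.04, that of all genes. In TLR3-MSC against MSC 2 of 11 (Tsc22d3 and Ddit4) had such a p, both lower, beside 1.99% of all genes, with a median of −0.16. In STING-MSC against MSC 5 of 11 had such a p, Tsc22d3 and Ddit4 among them, all lower, beside 2.17% of all genes, with a median of −0.28. Per1 was lower in both of these comparisons too, and Ddit4 held place 2 among the genes most like Per1 (r = 0.728). In STING-MSC against CTRL, where Per1 was higher, 4 of 11 had such a p, 1 higher and 3 lower. Beside them stand 6.54% and 5.69% of all genes, and the list's median was −0.27. In TLR3-MSC against CTRL 1 of 11 (Ddit4) had such a p and was lower, with a median of −0.13. Of all genes 3.58% had such a p there, in either direction. Of 16 immediate-early genes, 2 had such a p between MSC and CTRL, both higher, beside the same 5.64%, with a median of 0.01. In STING-MSC joints 7 of 16 were lower than in CTRL (beside 5.69% of all genes) and 10 of 16 lower than in MSC joints (beside 2.17%) at that p, with medians of −0.54 and −0.71. Dusp1 stands in both lists. The part of these genes in the level of Per1 was not tested.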

How the data were processed

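RNA sequencing of whole knee joints was analysed, with 5 joints in each of 4 groups taken from the sample labels. The authors aligned reads with STAR (version 2.7.3a) to GRCm39 and counted them per gene with HTSeq; the strand setting and any low-count filter are not given in the sources used here. The deposited values are a normalized signal, namely read counts that the authors divided by a median-ratio size factor per library, for 14793 genes. In every library at least 99.8% of the values were whole multiples of 1 read (within 0.1 read), and these gave the reads used for count tests and depth, which cover counting error only.

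The main test was limma (version 3.58.1, R 4.3.3) with trend on log2(value + 1) over all 20 joints and all genes, with Benjamini-Hochberg adjustment. Single differences were also put to an exact two-sided permutation test over 252 splits of 5 against 5 joints. Correlations used 100000 permutations after group means were subtracted. As alternatives, the pseudocount was set to 0.5 or 5, genes with a mean below 20 were dropped, and the fit was run on the compared groups alone, with quantile normalization, edgeR (version 4.0.16), DESeq2 (version 1.42.0), a replicate block and each joint left out. On simulated counts for MSC against CTRL, 200 of 14793 genes were changed 4-fold. Of these, limma, edgeR and DESeq2 each recovered 100%, with 7, 5 and 18 false calls. Recovery of smaller changes, such as the 1.95-fold difference of Per1 between MSC and CTRL joints, was not tested.

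The 10 genes, the lists and the tests were chosen with earlier results of these data known. By rule, all 10 genes and 5 partner genes are named, and pairwise differences of the 10 genes are given where the limma unadjusted p was 0.05 or less. For the partner genes only some such differences are given. Likeness to other genes is Pearson's r over 20 joints. Fits with marker scores as covariates, gene ratios and the 2 families of correlations with partner genes and markers were added after the first results were seen. Replicates are separate mice. Gene positions are as deposited. Exon lengths come from GENCODE, and promoters from RefSeq.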

Additional observations from a re-analysis of the deposited data

Results flagged for a closer look

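Among 60 groups of 5 joints (15 clock and partner genes in 4 groups), 3 held a joint whose gap to its nearest neighbour exceeded 0.71 of the group's range, Dixon's limit, and chance flags about 1 in 20 groups. For Per1, TLR3-MSC replicate 5 stood above the rest of its group at 1594 normalized counts, beside a group median of 1333. For Per2, MSC replicate 4 stood below at 380, beside a median of 560, and without this joint the Per2 differences of TLR3-MSC and STING-MSC from MSC no longer reached an unadjusted p of 0.05 in limma. For Ciart, MSC replicate 3 stood above at 53.7, beside a median of 41.7, and it still lay under every control joint.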

How the results depend on the processing

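No clock gene passed an FDR of 0.05 in limma under any alternative or with any joint left out; DESeq2 called 2 of 10 for any difference among groups, 2 for MSC against CTRL and 1 for STING-MSC against MSC. Pairwise differences with a limma unadjusted p of 0.05 or less numbered 33 over members and partner genes. Their 1023 values under alternatives held 0 changes of sign. Counts at an unadjusted p of 0.05 or less moved more. For MSC against CTRL the count of 6 was 4 with the neutrophil covariate or without CTRL replicate 4, and at most 7 (without MSC replicate 5). For STING-MSC against MSC the count of 5 was 2 with the compared groups alone and 3 in edgeR, and ran from 2 to 6 with single joints left out, at 2 without MSC replicate 3 or 4 or STING-MSC replicate 1 or 2, at 3 without MSC replicate 1 and at 6 without MSC replicate 5. For TLR3-MSC against MSC it ran from 1 (without MSC replicate 4) to 6 (without MSC replicate 5), for TLR3-MSC against CTRL from 1 (without CTRL replicate 4 or TLR3-MSC replicate 3 or 4) to 2, and for any difference among groups from 4 to 7 (without MSC replicate 5). For STING-MSC against TLR3-MSC the count of 0 was 1 with the compared groups alone or the fibroblast covariate, 3 with the neutrophil covariate, and 0 to 1 with single joints left out (1 without TLR3-MSC replicate 1). For STING-MSC against CTRL it was 7 with the neutrophil covariate. The cause of these moves was not tested. The median variance share between groups was 32.8% after quantile normalization and 27.7% to 40.8% with single joints left out. Correlated pairs numbered 14 to 18 of 45.

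Same-numbered joints are different mice. Over 30 same-numbered pairs their deviations from group means correlated with r from −0.66 to 0.464 (median −0.02), above 0.1 in 11 pairs. Differently numbered joints were not compared in this way, so whether the numbers follow a shared order was not tested. With the replicate block, 5 of 10 genes reached an unadjusted p of 0.05 or less for MSC against CTRL in place of 6, and 0 passed an FDR of 0.05.

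The limits are 5 joints a group, an unrecorded hour of collection and whole-joint tissue of varying makeup. Depth was not a limit for these genes.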
